A study of Mus musculus with 16 samples.

Results

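Transcripts of the NF-kB transcription factors and of the IkB proteins that restrain them were followed in naive mouse T cells that had or lacked Gabpa, before and after stimulation through the T cell receptor. The set held 9 genes chosen by name, namely Nfkb1, Nfkb2, Rel, Rela and Relb, which encode the 5 DNA-binding subunits, Nfkbia, Nfkbib and Nfkbie, which encode the classical inhibitors IkB alpha, beta and epsilon, and Bcl3, which encodes a nuclear relative of the inhibitors. Probe sets were taken where the platform's gene table tied them to the gene and to no other. By this rule 12 of the 22626 probe sets on the array (controls left out) measured 8 of the 9 genes, and Nfkb1 was not analysed here. The array held 12393 genes by the same rule, and each gene was read from its brightest probe set. Values are log2 array signals throughout, so a difference of 1 is a doubling of the signal.

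NF-kB proteins act as dimers of Rel-family subunits that bind short DNA motifs called kappaB sites. In a resting T cell the dimers are held in the cytoplasm by IkB proteins. Engagement of the T cell receptor and CD28 activates the IkB kinase complex, IKK, which marks the inhibitors for destruction and lets dimers of RelA or c-Rel with p50 enter the nucleus. A slower, non-canonical arm runs through TNF-receptor family members and the kinase NIK and processes the Nfkb2 product p100 into p52, the partner of RelB. Several members of the family are themselves well-known NF-kB target genes, with Nfkbia as the textbook example of negative feedback.

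The mice carried floxed alleles of Gabpa, which encodes the DNA-binding subunit of the Ets-family factor GABP. Gabpa f/f mice served as wild type (WT), and Gabpa f/f mice with a CD4-Cre transgene, which is active from the double-positive stage of thymic development and thus deletes in both lineages, served as knockout (KO). The animals were of both sexes on a C57BL/6 background, littermates where possible, and the ages of those behind the arrays were not given in the sources used here. Naive CD4+ and CD8+ T cells (CD25-, CD62L high, CD44 low) were sorted from spleen and lymph nodes, and each sort was divided between cells lysed at 0 h and cells stimulated for 18 h in culture by IL-2 and by antibodies against CD3 and CD28. The 16 arrays thus formed 8 groups of 2, here named by lineage, genotype and time. The labels number the 2 arrays of a group as biological replicates without saying which animals or pools they came from, so the p-values measure the spread between these samples only. These were bulk samples, in which fewer cells of a type and less RNA per cell cannot be told apart.

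The arrays matched their lineage labels. Cd8a lay between 10.89 and 12.01 on the CD8 arrays and between 4.42 and 7.56 on the CD4 arrays, and Cd4 lay between 6.34 and 7.26 on the CD4 arrays and between 4.78 and 5.59 on the CD8 arrays. The 7.56 was read on array 1 of CD4 WT 0 h, against 5.13 on array 2. That array also read above array 2 for Cd8b1 (8.52 and 7.52) and for each measured NK cell marker, such as Nkg7 (7.35 and 4.93). Array 1 of CD4 WT 18 h likewise read above array 2 for Cd8a (6.85 and 5.10) and Cd8b1 (7.45 and 5.89). It did so for Nkg7 (6.91 and 5.73) and Klrd1 (4.94 and 3.10), but not for Ncr1 (2.96 and 2.98) or Fcgr3 (4.26 and 4.26). In CD4 KO cells Nkg7 was also higher on array 1, at 0 h (6.21 and 4.69) and at 18 h (6.29 and 5.31). The part of this in the members' values was not tested. Il2ra, a marker of stimulation, lay between 2.64 and 4.51 at 0 h and between 7.49 and 8.94 at 18 h. Neither probe set of the deleted gene was lower in KO cells: 1450664_at lay between 8.74 and 9.34 on the 8 WT arrays and between 9.09 and 9.79 on the 8 KO arrays, and 1450665_at between 6.29 and 7.69 and between 7.62 and 9.20. Where these probes lie relative to the floxed part of Gabpa was not given, so they do not check the genotype. The study's own check was of protein: its immunoblot found hardly any of the Gabpa product in CD4+ and CD8+ T cells of KO mice. The difference between 3' and 5' control probes, a sign of shortened RNA, was 3.76 on array 2 of the CD8 KO 18 h group, 1.58 on array 1 of CD4 WT 0 h, 1.11 on array 2 of CD8 KO 0 h and between 0.46 and 0.85 on the other 13 arrays. The 2 arrays of a group correlated with r between 0.97 and 0.994, the lowest in CD8 KO 18 h.

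Matches to the kappaB motif near the starts of these genes are shown here because several of these genes are themselves known targets of NF-kB. The RefSeq promoter table of mouse assembly GRCm38.p6 held windows of 300 bases (250 before the start to 50 after it) for 7 of the 9 genes, all except Nfkb1 and Relb. A 10-letter kappaB consensus, searched on both strands, was present in 5 of the 7, namely Rel, Nfkb2, Nfkbia, Nfkbie and Bcl3, and absent from the windows of Rela and Nfkbib. The same consensus was present for 2581 of 27025 genes (9.55%) and in 2779 of 32851 windows (8.46%). The GABP site CCGGAAGT, searched on both strands as these exact letters, was present for 4.31% of genes and for 0 of the 7 members. Close variants of these letters were not searched for, so the count does not cover them. A match is a description of the letters and not a measured binding site. The stretches below run 5' to 3' along the gene's own strand, with the matched letters in capitals (overlapping matches are joined) and 30 bases kept on each side.
Rel, chr11:23771021-23771091, minus strand: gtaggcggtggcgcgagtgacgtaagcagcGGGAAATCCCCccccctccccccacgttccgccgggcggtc
Nfkb2, chr19:46304668-46304765, plus strand: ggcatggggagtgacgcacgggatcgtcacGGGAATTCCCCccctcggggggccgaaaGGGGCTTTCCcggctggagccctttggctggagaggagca
Nfkbia, chr12:55492637-55492706, minus strand: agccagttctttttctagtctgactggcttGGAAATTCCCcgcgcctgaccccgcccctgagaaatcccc
Nfkbie, chr17:45555564-45555633, plus strand: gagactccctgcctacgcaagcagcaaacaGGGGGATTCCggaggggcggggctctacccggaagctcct
Bcl3, chr7:19822714-19822783, minus strand: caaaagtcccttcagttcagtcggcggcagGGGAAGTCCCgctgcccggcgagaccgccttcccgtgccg

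The Nfkb2 stretch carried 2 separate runs of capitals, from base -39 to base -2 counted from the start site, and that of Nfkbia carried its run from -29 to -20. The matches of Rel and Nfkbie lay further up, from -92 and from -106, and the Bcl3 match lay just past the start, from base 3 to base 12. Nfkb2 had 2 further start sites in the table, whose overlapping windows shared 1 match, with 1 more in the first of them.

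The comparisons below run through the design. These ask how each transcript changed with 18 h of stimulation, whether KO differed from WT, whether the response to stimulation differed between the genotypes, and whether CD8 cells differed from CD4 cells. All were taken from 1 limma fit to the 16 arrays and share arrays with each other. A gene is called changed where its Benjamini-Hochberg adjusted p over all 12393 genes was under 0.05 and its fold over 1.5. The study's methods word the cutoff as p-values taken relative to a 1.5-fold change, which may mean a test against that fold, and counts under such a test are given beside those of the calls.

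Rel rose with stimulation in both lineages and genotypes, Relb and Nfkbib rose in CD4 cells of both genotypes, and Rela and Nfkbia were higher in KO than in WT cells at 18 h. With stimulation, 3 of the 8 measured members were called in CD4 WT cells, all higher, where 26.2% of all genes were called. In CD4 KO cells 6 were called, 5 higher and 1 lower, against 24.2% of all genes. In CD8 WT cells 2 were called, 1 in each direction (15.2% of all genes), and in CD8 KO cells 2, both higher (7.54%). A test against the 1.5-fold change itself called 1, 4, 1 and 1 members in these groups. The shares of all genes above belong to the calls and not to this test, whose counts have no such share beside them here. The median difference over the 8 members was 0.26, 1.15, -0.25 and 0.24 in these groups, beside -0.08, 0.02, -0.06 and 0.02 over all genes.

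**Figure D1:**
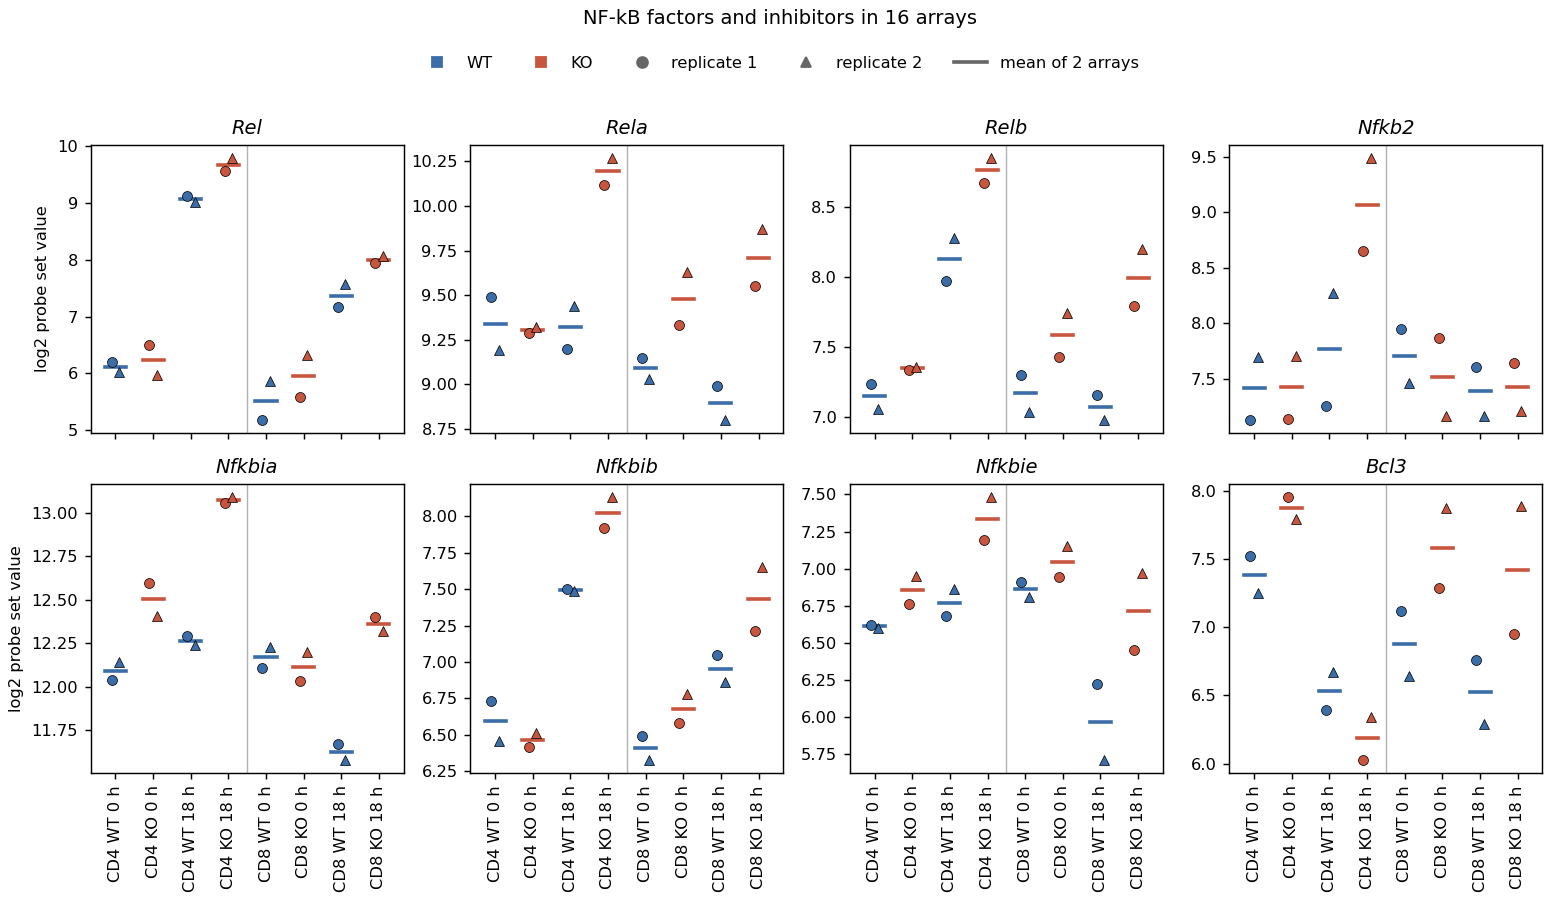
Log2 signal of the 8 measured genes in each of the 16 arrays, with 1 panel per gene, the 8 groups along the horizontal axis, points for arrays and a bar for the mean of the 2. Rel spans 5.18 to 9.80 and is higher at 18 h in every lineage and genotype, CD4 KO 18 h is the highest group for 7 of the 8 genes, and Bcl3 is lowest in that group.

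Rel encodes c-Rel, the subunit most tied to lymphocyte activation, and it was the member with the widest range. In CD4 WT cells its arrays read 6.20 and 6.02 at 0 h and 9.12 and 9.03 at 18 h, and in CD4 KO cells 6.51 and 5.97 at 0 h and 9.56 and 9.80 at 18 h. In CD8 WT cells they read 5.18 and 5.86 at 0 h and 7.17 and 7.57 at 18 h, and in CD8 KO cells 5.58 and 6.32 at 0 h and 7.94 and 8.07 at 18 h. No array at 0 h reached any array at 18 h, whatever the lineage or genotype. The rise was 2.96 ± 0.28 (SE) in CD4 WT cells, 7.79-fold (limma, adjusted p = 9.35e-06), and 3.44 in CD4 KO cells, 10.9-fold (2.67e-06). In CD8 cells it was 1.85 in WT, 3.61-fold (adjusted p = 0.000832), and 2.06 in KO, 4.17-fold (0.000779). All 4 calls held with each array left out in turn.

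At 18 h the 4 groups of Rel stood in the order CD4 KO (mean 9.68), CD4 WT (9.07), CD8 KO (8.01) and CD8 WT (7.37), and no 2 neighbours overlapped. The 4 groups at 0 h, with means from 5.52 to 6.24, overlapped their neighbours. The step from CD8 to CD4 at 18 h was called in WT (-1.70, CD8 minus CD4, adjusted p = 0.00503) and in KO (-1.68, 0.00159), whereas that from WT to KO was not (0.61 in CD4 cells, adjusted p = 0.28, and 0.64 in CD8 cells, 0.274). The WT lineage call was lost without array 1 of CD8 WT 18 h (adjusted p = 0.0779). The WT response in CD8 minus that in CD4 cells was -1.11 ± 0.39 and was not called (adjusted p = 0.355).

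Rela encodes RelA (p65), the activating subunit of the most common NF-kB dimer. Its arrays read 9.49 and 9.19 in CD4 WT 0 h, 9.29 and 9.32 in CD4 KO 0 h, 9.20 and 9.44 in CD4 WT 18 h, and 10.12 and 10.27 in CD4 KO 18 h. In CD8 cells they read 9.15 and 9.03 in WT 0 h, 9.33 and 9.63 in KO 0 h, 8.99 and 8.80 in WT 18 h, and 9.55 and 9.87 in KO 18 h. At 18 h every KO array stood above every WT array of its lineage, and the CD4 KO 18 h arrays stood above all others. Rela was higher in KO than in WT cells at 18 h by 0.88 ± 0.17 in CD4 cells, 1.84-fold (limma, adjusted p = 0.00863), and by 0.81 in CD8 cells, 1.75-fold (0.029). In CD4 cells stimulation moved Rela by -0.02 in WT and raised it by 0.89 in KO (adjusted p = 0.00204), and the difference between these responses, 0.91 ± 0.25, was not called (0.116).

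The Rela calls between genotypes rested on few arrays. In CD4 cells the 18 h call was lost without array 1 of CD4 WT 18 h (0.76, adjusted p = 0.09) or array 2 of CD4 KO 18 h (0.80, 0.0958). In CD8 cells it was lost without array 1 (0.91, adjusted p = 0.053) or array 2 (0.72, 0.245) of CD8 WT 18 h, and without array 2 of CD8 KO 18 h, that of the highest 3' to 5' difference (0.65, 0.158).

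Relb encodes RelB, the partner of p52 in the non-canonical arm. Its arrays read 7.24 and 7.06 in CD4 WT 0 h, 7.34 and 7.36 in CD4 KO 0 h, 7.97 and 8.28 in CD4 WT 18 h, and 8.67 and 8.85 in CD4 KO 18 h. In CD8 cells they read 7.30 and 7.04 in WT 0 h, 7.43 and 7.74 in KO 0 h, 7.16 and 6.98 in WT 18 h, and 7.79 and 8.20 in KO 18 h. In CD4 cells the 18 h arrays stood above the 0 h arrays in both genotypes, while in CD8 WT cells the 2 times overlapped. The rise was called in CD4 WT cells (0.98 ± 0.19, 1.97-fold, limma adjusted p = 0.00158) and in CD4 KO cells (1.41, 2.66-fold, 0.000114), and both calls held with each array left out. The WT response in CD8 minus that in CD4 was -1.07 ± 0.27, which was not called (adjusted p = 0.12).

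Between genotypes, Relb was higher in CD8 KO than in CD8 WT cells at 18 h by 0.92 ± 0.19, 1.89-fold (limma, adjusted p = 0.0228). That call was lost without array 2 of CD8 KO 18 h (0.72, adjusted p = 0.131) or array 2 of CD8 WT 18 h (0.83, 0.206). In CD4 cells the difference at 18 h was 0.64 (adjusted p = 0.0653), with the KO arrays above the WT arrays, and it was called without either of the CD8 KO 18 h arrays (0.0341). CD8 arrays stood below CD4 arrays at 18 h in WT (-1.05, adjusted p = 0.00815) and in KO (-0.77, 0.0155). The first was lost without array 2 of CD4 WT 18 h (-0.90, adjusted p = 0.0949) or of CD8 WT 18 h (-0.96, 0.0549), and the second without array 2 of CD4 KO 18 h (-0.68, 0.135) or array 1 of CD8 KO 18 h (-0.56, 0.0699).

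Nfkb2 encodes p100, at once an IkB-like inhibitor and the precursor of p52. Its brightest probe set, 1429128_x_at, read 7.13 and 7.70 in CD4 WT 0 h, 7.14 and 7.71 in CD4 KO 0 h, 7.26 and 8.27 in CD4 WT 18 h, and 8.65 and 9.49 in CD4 KO 18 h. In CD8 cells it read 7.95 and 7.46 in WT 0 h, 7.87 and 7.17 in KO 0 h, 7.61 and 7.17 in WT 18 h, and 7.64 and 7.21 in KO 18 h. The CD4 KO 18 h arrays stood above all others, and each of the other 7 groups overlapped its neighbour in the order of means. Of the responses to stimulation, only that of CD4 KO cells was called (1.65 ± 0.39, 3.13-fold, limma adjusted p = 0.00723). This call was lost without array 1 of CD4 KO 0 h (1.36) or array 2 of CD4 KO 18 h (1.22).

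Array 1 of Nfkb2 was below array 2 in every CD4 group and above it in every CD8 group, so that a fit with the replicate number of each lineage as a block changed its calls. KO minus WT in CD4 cells at 18 h was 1.30 ± 0.39 without the block (limma, adjusted p = 0.0712) and 1.30 ± 0.15 with the replicate block (0.000244), where it was called. The difference between the KO and the WT response of CD4 cells was likewise 1.30 ± 0.56 without (adjusted p = 0.392) and 1.30 ± 0.21 with the replicate block (0.00975). Without array 2 of CD4 WT 18 h, the 18 h difference was 1.80 (adjusted p = 0.0429). In CD8 cells at 18 h KO minus WT was 0.04 (adjusted p = 0.98), but the difference of the KO effects, -1.27 ± 0.56 as CD8 minus CD4, was not called (0.703).

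The 2 probe sets of Nfkb2 gave unlike accounts of the WT response. The other one, 1425902_a_at, read 6.10 and 6.21 in CD4 WT 0 h, 7.88 and 8.08 in CD4 WT 18 h, 6.54 and 6.88 in CD4 KO 0 h, and 8.78 and 9.44 in CD4 KO 18 h. In CD4 cells of each genotype its 0 h and 18 h arrays were well apart, and the KO arrays at 18 h stood above the WT arrays. With probe sets tested singly, it rose in CD4 WT cells by 1.83 ± 0.26 (limma over all probe sets, adjusted p = 0.000431) and in CD4 KO cells by 2.40 (7.5e-05), against 0.35 for the brightest probe set in CD4 WT cells. It was higher in KO than in WT CD4 cells at 18 h by 1.13 ± 0.26 (adjusted p = 0.0338). In CD8 cells it moved by 0.58 in WT (adjusted p = 0.218) and by 0.42 in KO (0.465), neither called.

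**Figure D2:**
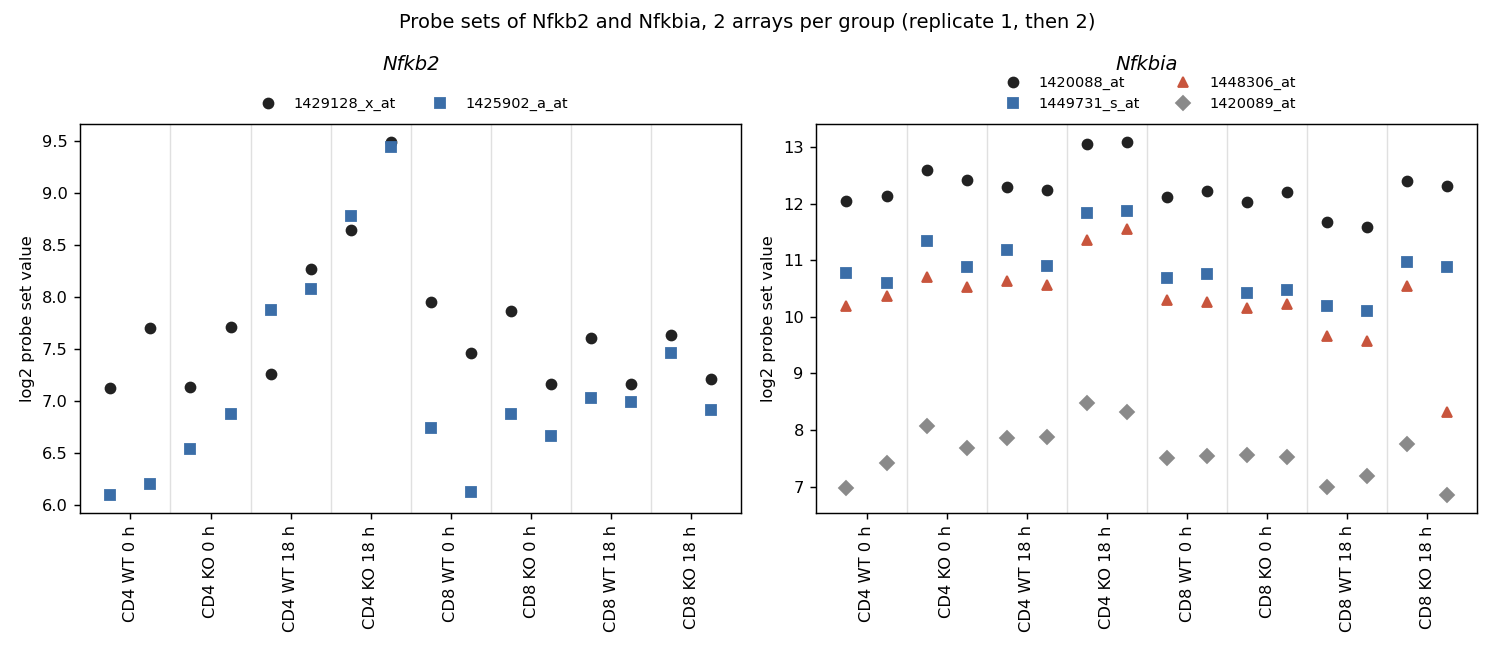
Log2 signal of each probe set of the genes with more than 1 probe set, Nfkb2 (2 probe sets) and Nfkbia (4), in the 16 arrays, grouped as in the plot of levels. The 2 probe sets of Nfkb2 differ in CD4 WT cells, and 2 of the Nfkbia probe sets, 1448306_at and 1420089_at, read low on array 2 of CD8 KO 18 h (8.31 and 6.85).

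Nfkbia encodes IkB alpha, the fast-turnover inhibitor of RelA and c-Rel dimers. Its arrays read 12.04 and 12.14 in CD4 WT 0 h, 12.60 and 12.41 in CD4 KO 0 h, 12.29 and 12.24 in CD4 WT 18 h, and 13.06 and 13.09 in CD4 KO 18 h. In CD8 cells they read 12.11 and 12.23 in WT 0 h, 12.03 and 12.20 in KO 0 h, 11.67 and 11.58 in WT 18 h, and 12.40 and 12.32 in KO 18 h. KO arrays stood above WT arrays at 18 h in both lineages, and at 0 h they did so in CD4 but not in CD8 cells. Nfkbia was higher in KO than in WT cells at 18 h by 0.81 ± 0.13 in CD4 cells, 1.75-fold (limma, adjusted p = 0.00306), and by 0.73 in CD8 cells, 1.66-fold (0.0146). At 0 h the difference was 0.41 in CD4 cells (adjusted p = 0.226).

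The response of Nfkbia to stimulation differed in sign between groups. From 0 h to 18 h its signal moved by -0.54 in CD8 WT cells (limma, adjusted p = 0.0151) and by 0.57 in CD4 KO cells (0.00682), both short of the 1.5-fold threshold. It moved by 0.17 in CD4 WT cells. The KO response minus the WT response was 0.79 ± 0.19 in CD8 cells and was not called (adjusted p = 0.151). At 18 h CD8 arrays read below CD4 arrays in WT (-0.64, adjusted p = 0.0212) and in KO (-0.71, 0.00342). The WT call was lost without any of the 4 arrays compared, with differences from -0.69 to -0.60.

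The 4 probe sets of Nfkbia did not give the same calls at 18 h. Probe set 1449731_s_at read 11.19 and 10.89 in CD4 WT 18 h against 11.84 and 11.87 in CD4 KO 18 h, and 10.20 and 10.10 in CD8 WT 18 h against 10.97 and 10.88 in CD8 KO 18 h. Its KO arrays were the higher in each lineage, and the differences, 0.82 in CD4 cells (limma over all probe sets, adjusted p = 0.0175) and 0.77 ± 0.17 in CD8 cells (0.044), were called. Probe sets 1448306_at (0.85 in CD4 cells, adjusted p = 0.51, and -0.19 in CD8 cells, 0.915) and 1420089_at (0.53, 0.385, and 0.21, 0.786) were not. In CD8 KO 18 h these read 10.55 and 7.76 on array 1 but 8.31 and 6.85 on array 2. That array has the 3' to 5' difference of 3.76, whose part in these readings was not tested. With the mean of the 4 probe sets in place of the brightest, the difference was 0.75 in CD4 cells (adjusted p = 0.0614) and 0.38 in CD8 cells (0.45). The CD8 call was also lost without array 2 of CD8 WT 18 h (0.69, adjusted p = 0.139).

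Nfkbib encodes IkB beta. Its arrays read 6.73 and 6.46 in CD4 WT 0 h, 6.42 and 6.51 in CD4 KO 0 h, 7.50 and 7.49 in CD4 WT 18 h, and 7.92 and 8.13 in CD4 KO 18 h. In CD8 cells they read 6.49 and 6.33 in WT 0 h, 6.58 and 6.78 in KO 0 h, 7.05 and 6.86 in WT 18 h, and 7.21 and 7.65 in KO 18 h. As for Rel, every 18 h array stood above every 0 h array. It rose in CD4 WT cells by 0.89 ± 0.18, 1.86-fold (limma, adjusted p = 0.00188), and in CD4 KO cells by 1.56, 2.95-fold (3.35e-05). The rise of 0.75 ± 0.18 in CD8 KO cells, 1.68-fold (adjusted p = 0.0209), was lost without array 1 (0.65, 0.168) or array 2 (0.86, 0.0539) of CD8 KO 0 h and without array 2 of CD8 KO 18 h (0.53, 0.144), and that of 0.54 in CD8 WT cells was not called (0.0554). KO minus WT at 18 h was 0.53 in CD4 cells (adjusted p = 0.104) and 0.48 in CD8 cells (0.177). The latter was 0.70 without array 1 of CD8 KO 18 h and 0.26 without array 2, that of the highest 3' to 5' difference.

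Nfkbie encodes IkB epsilon and was the only inhibitor called lower with stimulation in CD8 WT cells, where Nfkbia moved by -0.54 without a call. The Nfkbie arrays there read 6.91 and 6.81 at 0 h and 6.22 and 5.71 at 18 h, a difference of -0.90 ± 0.21, 1.87-fold lower (limma, adjusted p = 0.0105). These 18 h arrays were the lowest of the 16. The call was lost without array 1 of CD8 WT 0 h (-0.85, adjusted p = 0.0805) or array 2 of CD8 WT 18 h (-0.65, 0.153). In the other groups Nfkbie read 6.62 and 6.60 in CD4 WT 0 h, 6.76 and 6.95 in CD4 KO 0 h, 6.68 and 6.86 in CD4 WT 18 h, 7.19 and 7.48 in CD4 KO 18 h, 6.94 and 7.15 in CD8 KO 0 h, and 6.45 and 6.97 in CD8 KO 18 h. The KO arrays at 18 h were above the WT arrays in each lineage, by 0.57 in CD4 cells (adjusted p = 0.154) and by 0.75 in CD8 cells (0.0836). The latter was 1.01 without array 1 of CD8 KO 18 h and 0.48 without array 2, that of the highest 3' to 5' difference. Without array 1 of CD8 WT 18 h it was 1.0. The WT response in CD8 minus that in CD4 was -1.06 ± 0.30 and was not called (adjusted p = 0.177).

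**Figure D3:**
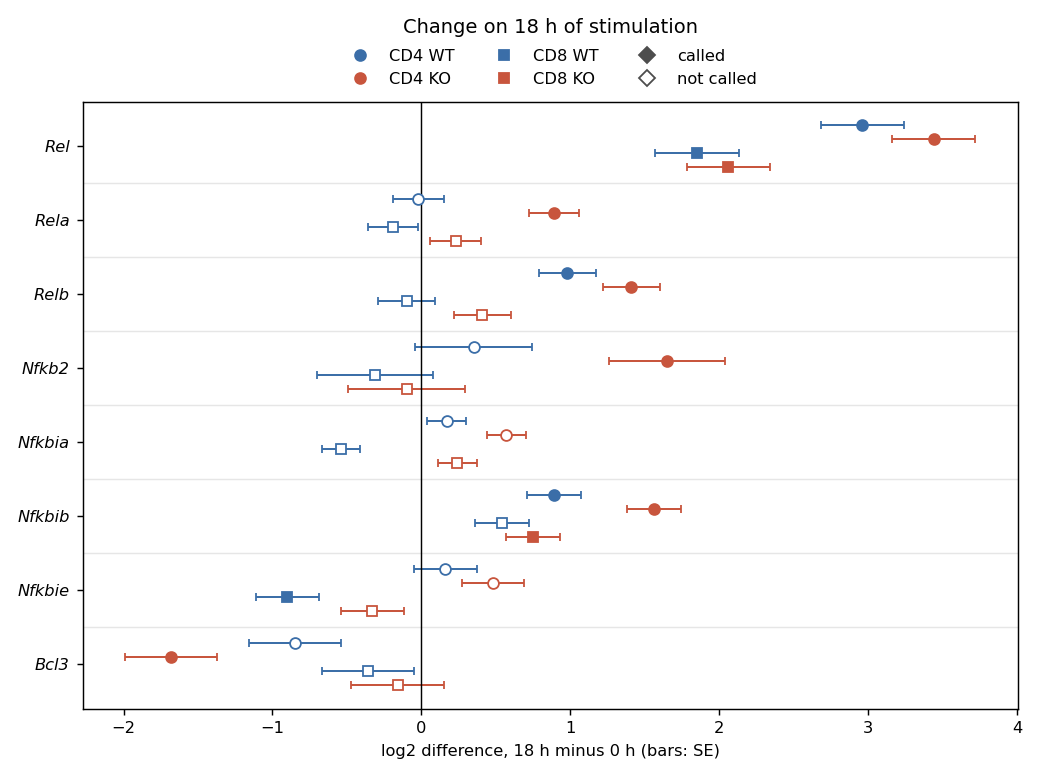
Log2 difference between 18 h and 0 h for the 8 measured genes in each lineage and genotype, with points for the limma estimate, bars for its standard error, and filled points for called differences. Rel is called in all 4 groups, Relb and Nfkbib in CD4 cells of both genotypes, and Bcl3 lies on the other side of 0 in CD4 cells (-0.85 and -1.68).

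Bcl3 encodes a nuclear IkB-family protein that works with p50 or p52 homodimers, and its course differed from that of the rest. Its arrays read 7.52 and 7.25 in CD4 WT 0 h, 7.95 and 7.79 in CD4 KO 0 h, 6.39 and 6.67 in CD4 WT 18 h, and 6.03 and 6.34 in CD4 KO 18 h. In CD8 cells they read 7.12 and 6.64 in WT 0 h, 7.29 and 7.87 in KO 0 h, 6.76 and 6.29 in WT 18 h, and 6.95 and 7.89 in KO 18 h. In CD4 cells all 18 h arrays stood below all 0 h arrays, while in CD8 cells of either genotype the times overlapped. The fall was called in CD4 KO cells (-1.68 ± 0.31, 3.21-fold, limma adjusted p = 0.00117), with each array left out as well, and in CD4 WT cells it was -0.85 ± 0.31 (0.0541). The latter was called without either of the CD8 KO 18 h arrays (adjusted p = 0.0164) and with a replicate block by sort, which pairs the 2 times (-0.85 ± 0.19, limma adjusted p = 0.00542).

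The CD8 KO 18 h arrays of Bcl3 were far apart, at 6.95 and 7.89, and comparisons that use them moved with each. In KO cells at 18 h Bcl3 was higher in CD8 than in CD4 cells by 1.23 ± 0.31, 2.35-fold (limma, adjusted p = 0.0165). This was lost without array 2 of CD8 KO 18 h (0.76, adjusted p = 0.151) and without array 1 (1.08, 0.119) or array 2 (1.39, 0.0563) of CD4 KO 18 h. KO minus WT at 18 h was -0.34 in CD4 cells (adjusted p = 0.706) and 0.90 in CD8 cells (0.144). The latter was 1.37 without array 1 of CD8 KO 18 h and 0.43 without array 2, that of the highest 3' to 5' difference. The difference between these KO effects was 1.24 ± 0.43 and was not called (adjusted p = 0.542). It was 1.71 without array 1 and 0.77 without array 2 of CD8 KO 18 h.

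Set against the genotype, no member was called at rest and those called after stimulation were all higher in KO cells. At 0 h 0 of the 8 were called between KO and WT in CD4 cells, where 1.27% of all genes were, and 0 in CD8 cells (1.63% of all genes). At 18 h 2 were called in CD4 cells, Rela and Nfkbia, both higher in KO, against 6.86% of all genes, and 3 in CD8 cells, Rela, Relb and Nfkbia, all higher in KO, against 2.75%. A test against the 1.5-fold change itself called 0 members in either lineage, and 159 and 31 of all genes. The sign of the 18 h difference was positive for 7 of the 8 in CD4 cells, with Bcl3 as the exception, and for 8 of the 8 in CD8 cells. The members' median at 18 h was 0.62 in CD4 cells and 0.74 in CD8 cells, beside 0.02 and 0.07 over all genes, and 0.16 and 0.33 at 0 h, beside -0.06 and 0.02. The same WT and KO arrays enter every member's value, so the 8 signs are not 8 independent observations.

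**Figure D4:**
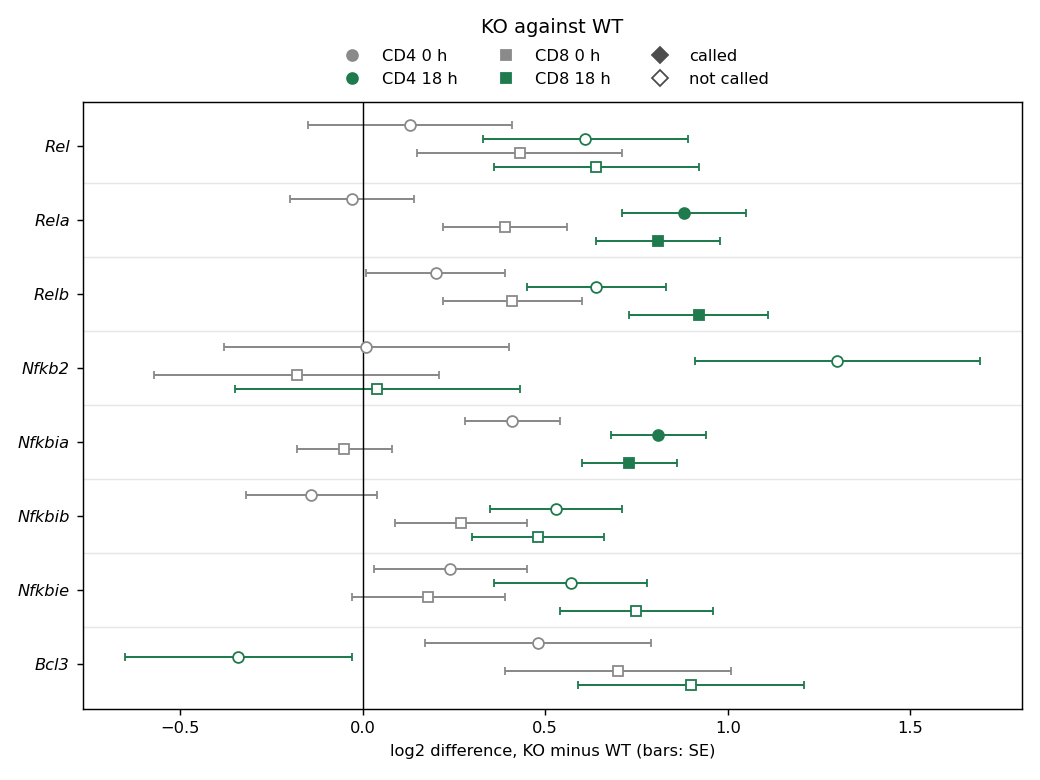
Log2 difference between KO and WT for the 8 measured genes at 0 h and 18 h in each lineage, with points for the limma estimate, bars for its standard error, and filled points for called differences. No gene is called at 0 h. At 18 h Rela and Nfkbia are called in both lineages and Relb in CD8 cells, and Bcl3 in CD4 cells (-0.34) is the only value below 0.

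Whether the response to stimulation itself differed between genotypes was asked by an interaction term, in which 0 members were called in CD4 cells (1.41% of all genes were) and 0 in CD8 cells (0.266%). The differences of KO effects between lineages were called for 0 members at 0 h, where the share over all genes was 0%, and for 0 at 18 h (0.0403%). The difference of the WT response between lineages was called for 0 members (0.371% of all genes). The differences between genotypes at 18 h were therefore not shown to exceed those at 0 h, apart from that of Nfkb2 in CD4 cells under the replicate block.

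Markers of other cell types were read on the same arrays. The mean over the 12 myeloid and dendritic markers ran from 3.58 to 3.73 in CD4 WT and from 3.84 to 4.09 in CD4 KO cells at 18 h, and from 3.59 to 3.73 and from 3.68 to 4.09 in CD8 cells. Of these 12, 1 (Zbtb46) was called higher in CD4 KO cells at 18 h and 0 in CD8 KO cells. The 7 measured of 8 B cell markers had means between 3.53 and 4.58 on the 16 arrays, and from 3.83 to 4.58 within CD4 WT 0 h. The mean over 7 measured of 8 memory and effector T cell markers ran from 6.44 to 7.24 in CD4 WT 0 h, from 5.67 to 6.38 in CD4 KO 0 h, from 7.09 to 7.29 in CD8 WT 18 h and from 7.59 to 7.64 in CD8 KO 18 h. Of these, Cxcr3 and Ahnak were called lower in CD4 KO cells at 0 h, and Ahnak higher in CD8 KO cells at 18 h. The KO response minus the WT response was called higher for 2 of them in CD4 cells, the same pair of genes, and for 1 in CD8 cells, Ahnak. Of 4 measured of 5 NK cell markers, Fcgr3 was called lower in CD4 KO cells at 0 h and 0 were called between genotypes at 18 h. The part of these lists in the values of the members was not tested.

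Between lineages, no member was called at rest, and after stimulation most of those called were lower in CD8 than in CD4 cells. At 0 h 0 members were called in WT (1.28% of all genes) and 0 in KO (2.31%). In WT cells at 18 h 3 were called, Rel, Relb and Nfkbia, all lower in CD8, against 3.28% of all genes. In KO cells at 18 h 6 were called against 13.7% of all genes, namely Nfkb2, Rel, Relb, Nfkbia and Nfkbib, lower in CD8, and Bcl3, higher. A test against the 1.5-fold change itself called 0 in WT and 1 in KO. The shares just given do not belong to that test, whose counts have no such share beside them here. The median over the members was -0.59 in WT and -0.67 in KO cells at 18 h, beside -0.01 and 0.04 over all genes. Nfkb2 in KO cells differed by -1.64 ± 0.39 (limma, adjusted p = 0.014), which was lost without array 2 of CD4 KO 18 h (-1.22, 0.166) or of CD8 KO 18 h (-1.43, 0.092). Nfkbib differed by -0.59 ± 0.18 (adjusted p = 0.0413), just past the 1.5-fold threshold, and was lost in 13 of the 16 runs with 1 array left out, with differences from -0.70 to -0.37 over them. Nfkbie in WT cells differed by -0.81 (adjusted p = 0.058).

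**Figure D5:**
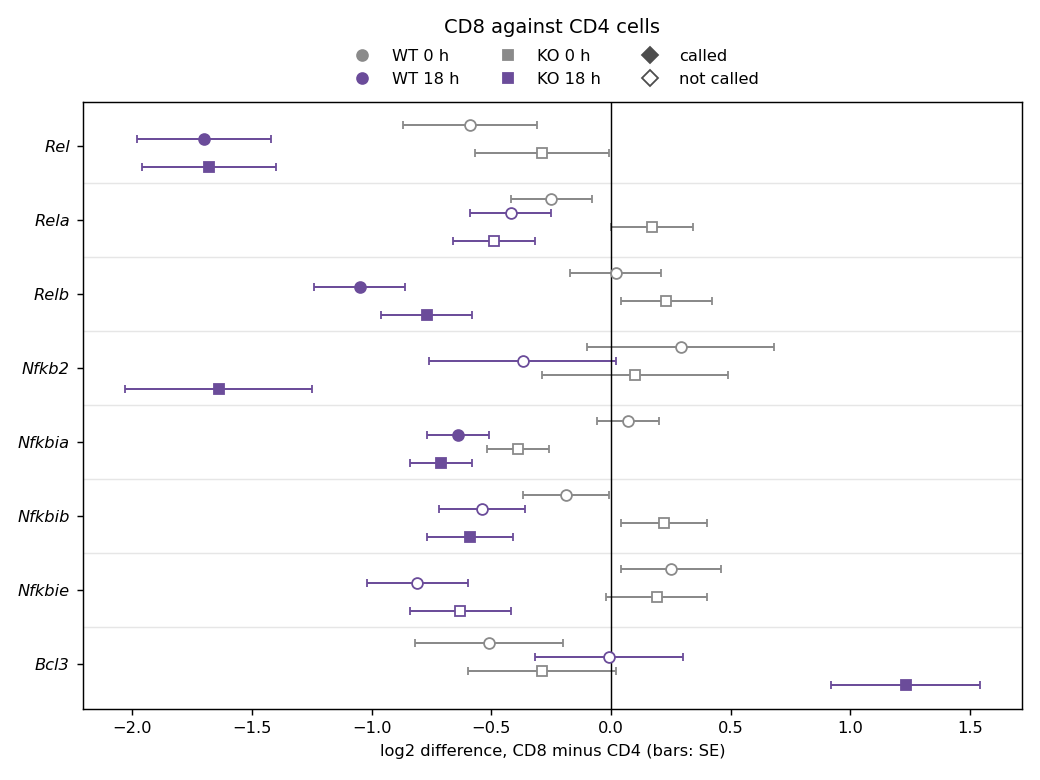
Log2 difference between CD8 and CD4 cells for the 8 measured genes, by genotype and time, with points for the limma estimate, bars for its standard error, and filled points for called differences. No gene is called at 0 h, Rel, Relb and Nfkbia are called lower in CD8 cells at 18 h in both genotypes, and Bcl3 in KO cells at 18 h is higher (1.23).

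The members varied together over the 8 groups to unequal degrees. Over the 8 group means, the correlation was 0.97 between Rel and Nfkbib, 0.91 between Relb and Nfkbib, 0.87 between Rela and Relb, 0.87 between Rela and Nfkbia, and 0.86 between Rel and Relb. Bcl3 ran against Rel (-0.68), Nfkb2 (-0.66) and Nfkbib (-0.65). Rel and Nfkbie had a correlation of 0.19. These are descriptions over 8 points that share arrays and the contrast of 0 h with 18 h.

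The genes most like the 3 members of widest range were found by the same correlation among the 4155 genes whose group means spanned over 1. The range was taken over the 8 group means, in which Bcl3 (1.6826) and Nfkb2 (1.6779), in the third and the fourth place, were nearly level. For Rel these were Tnf (r = 0.994), Rpl7l1 (0.993), Eea1 (0.992), Bcl2l1 (0.992) and Sh3rf1 (0.991). For Relb they were Srgn (0.969), Abcc1 (0.965), Ube2f (0.964), Ifrd1 (0.957) and Ubxn2a (0.953). For Bcl3 they were Tmem50b (0.974), Skap2 (0.966), Stk11ip (0.965), She (0.96) and Slc35a2 (0.959).

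The wider pathway was read from lists of genes upstream and downstream of the factors. Over all genes, 12.2% were called higher and 14% lower with stimulation in CD4 WT cells, 11.1% and 13.2% in CD4 KO, 8.2% and 7% in CD8 WT, and 3.67% and 3.87% in CD8 KO cells. For KO against WT at 18 h the shares were 2.72% higher and 4.14% lower in CD4 cells and 1.59% and 1.16% in CD8 cells. The counts of each list below are small and stand beside these shares. Calls of list genes were not checked with arrays left out or under the other settings, which were read for the members only. Of 18 genes of signalling to IKK from several receptors, with subunits of IKK itself among them, 13 were measured. In CD4 WT cells 1 rose and 7 fell, in CD4 KO cells 3 and 6, in CD8 WT cells 1 and 3, and in CD8 KO cells 0 and 1, while the list's median was -0.69, -0.36, -0.44 and -0.27. The gene that rose in WT cells was Ube2n (1.13 in CD4 WT and 0.98 in CD8 WT cells, and called in CD4 KO cells as well), which encodes a ubiquitin-conjugating enzyme for the chains that activate IKK. Ikbkb, the catalytic subunit IKK beta, fell in all 4 (-1.39, -1.69, -0.99 and -0.89). Prkcq, the kinase PKC theta, fell in the first 3 (-1.48, -1.61 and -1.01). Sharpin, a part of the linear ubiquitin ligase, fell in CD4 cells (-0.79 and -1.40), as did Map3k7, the kinase TAK1, in CD4 WT cells (-0.69). Between genotypes at 18 h, Bcl10, an adaptor of the receptor-proximal complex, was higher (0.76) and Ikbkg, the IKK scaffold NEMO, lower (-0.86) in CD4 KO cells, and 0 were called in CD8 cells.

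Of 9 genes of the non-canonical arm 8 were measured, and 3 of its receptors were the only ones called higher after stimulation. The TNF-receptor family members Tnfrsf4 (OX40; 3.55, 3.62, 1.35 and 1.68 in CD4 WT, CD4 KO, CD8 WT and CD8 KO cells), Tnfrsf9 (4-1BB; 2.05, 3.05, 2.77 and 2.40) and Tnfrsf18 (GITR; 1.51, 1.42, 1.20 and 1.55) rose in all 4 groups. Cd27, another receptor of the family, fell in CD4 WT (-1.47), CD8 WT (-0.81) and CD8 KO cells (-0.94). Map3k14, which encodes NIK, fell in WT cells of both lineages (-1.06 and -0.93, limma adjusted p = 0.000629 and 0.00345). At 18 h its arrays read 6.32 and 6.40 in CD4 WT, 7.08 and 7.05 in CD4 KO, 6.35 and 5.91 in CD8 WT, and 6.93 and 7.01 in CD8 KO cells. The KO arrays were the higher in each lineage, by 0.70 ± 0.18 in CD4 cells (adjusted p = 0.0314) and 0.84 ± 0.18 in CD8 cells (0.0276). Birc3, a ubiquitin ligase that keeps NIK low and a known NF-kB target, read 10.02 and 9.80 against 10.70 and 10.61 in CD4 cells at 18 h, WT against KO, and 9.58 and 9.59 against 10.31 and 10.51 in CD8 cells. It too was higher in KO, by 0.74 (adjusted p = 0.00689) and 0.83 (0.0099). In all, 3 of the 8 were called higher in CD4 KO cells at 18 h, Tnfrsf9 being the third, and 2 in CD8 KO cells, with 0 lower in either.

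Of 13 negative regulators of the pathway, 10 were measured. With stimulation 1 rose and 1 fell in CD4 WT cells, 3 and 1 in CD4 KO cells, 0 and 1 in CD8 WT cells and 0 and 1 in CD8 KO cells. Tnip2, a partner of the deubiquitinase A20, rose in CD4 cells (0.67 in WT and 0.80 in KO), and Tnip1, another, fell in CD8 WT cells (-0.64). Pdlim2, which promotes degradation of nuclear RelA, fell in CD4 WT (-1.13), CD4 KO (-1.16) and CD8 KO cells (-0.99). At 18 h 1 was higher in KO in each lineage, Otud7b in CD4 and Itch in CD8 cells. Nfkbiz, which encodes the nuclear inhibitor IkB zeta, was called in no comparison of stimulation or genotype.

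All 21 genes of a list of known NF-kB targets in T cells were measured, and most of those called rose with stimulation. In CD4 WT cells 12 rose and 1 fell, in CD4 KO cells 13 and 1, in CD8 WT cells 10 and 1, and in CD8 KO cells 12 and 0. By the mean WT response of both lineages, the largest were Il2ra, the IL-2 receptor alpha chain (4.95, 4.73, 4.80 and 4.96), the chemokine Ccl3 (3.82, 4.21, 7.06 and 5.56) and the cytokine Ifng (5.88 in CD8 WT and 4.19 in CD8 KO cells, and called in CD4 WT cells as well). In CD4 cells Il2 moved further, from 3.76 and 4.44 to 11.97 and 10.92 in WT and from 6.51 and 5.09 to 12.62 and 13.31 in KO. In CD8 WT cells Il2 read 4.06 and 4.10 at 0 h and 4.88 and 7.39 at 18 h and was not called. In CD8 KO cells it read 3.77 and 4.99 at 0 h and 8.62 and 9.15 at 18 h and was called higher. Cflar, which encodes the caspase-8 inhibitor c-FLIP, fell in CD8 WT cells (-1.10) and Ltb, lymphotoxin beta, in CD4 WT cells (-1.36). At 18 h 5 were higher in CD4 KO than in CD4 WT cells, namely Csf2, Cd83, Traf1, Gadd45b and Cflar, and 0 lower. In CD8 cells 1 was higher, Traf1, and 1 lower, Lta.

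Traf1, an adaptor of TNF-receptor signalling, was the listed target called between genotypes in both lineages. Its arrays read 8.12 and 7.84 in CD4 WT 0 h, 8.25 and 8.21 in CD4 KO 0 h, 7.84 and 8.20 in CD4 WT 18 h, and 9.65 and 10.14 in CD4 KO 18 h. In CD8 cells they read 8.47 and 8.46 in WT 0 h, 8.82 and 8.71 in KO 0 h, 7.93 and 7.82 in WT 18 h, and 9.02 and 8.63 in KO 18 h. The CD4 KO 18 h arrays stood above all others, and the CD8 KO arrays above the CD8 WT arrays at each time. KO minus WT at 18 h was 1.88 ± 0.20 in CD4 cells (limma, adjusted p = 0.000125) and 0.95 ± 0.20 in CD8 cells (0.0259). In CD4 cells it moved by 0.04 with stimulation in WT and rose by 1.67 in KO, and the difference of these responses, 1.63 ± 0.28, was called (adjusted p = 0.0151). At 0 h 0 genes of these 5 lists were called between genotypes in either lineage. Over all genes the shares were 1.27% in CD4 and 1.63% in CD8 cells, so lists this small would hold few calls or none.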

How the data were processed

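Total RNA of the sorted cells was amplified in 2 rounds, labelled with biotin and hybridized to Affymetrix mouse expression arrays. The authors' deposited values were log2 signals per probe set, made with affy in R. The package version and the summary method were not given in the sources used here. Array medians lay between 5.24 and 5.43. Values normalized between arrays do not show a change of total RNA per cell. Arrays have no read depth, and their number, 2 per group, limits the precision.

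Of 22690 probe sets, 64 were controls, 20380 named 1 gene, 691 several and 1555 none. Of those naming 1 gene, 20351 were matched to RefSeq by gene identifier. For each of 12393 genes the brightest probe set over all arrays was used, and 4956 genes had more than 1. Groups came from the labels. limma 3.58.1 in R 4.3.3 fitted a mean per group to all 16 arrays (8 residual degrees of freedom) and gave 17 comparisons, two-sided, with Benjamini-Hochberg adjustment over all genes. A call needed an adjusted p under 0.05 and a fold over 1.5. The scripts were tested on simulated data.

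Replicate numbers were checked as pairs. Deviations of same-numbered arrays from their group means correlated across genes with r between 0.27 and 0.56 in the 4 pairs of 1 sort, and between 0.18 and 0.45 in the 8 other pairs of 1 lineage. Across lineages r lay between -0.60 and -0.12 (16 pairs). The labels' treatment protocol says that a sort was divided between 0 h and 18 h, but not that a number marks a sort. Since every pair within a lineage correlated above 0.1, the numbers were taken to pair arrays there. Replicate blocks were run as alternatives and are given beside Nfkb2 and Bcl3.

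The 9 members are all named in the text. Of each pathway list, up to 3 called genes with the highest and 2 with the lowest mean WT response were named, and those called between genotypes in both lineages. For the 3 members of widest range over the group means, the 5 most correlated genes were named. Genes that make up small counts, and Il2, were named after their values were seen. The members and lists were chosen with earlier results of these data known. Alternatives, read for the members and not for the genes of the lists, were another choice of probe set, other scalings, array weights, single-lineage fits, a test against the 1.5-fold threshold, replicate blocks, and leaving out arrays.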

Additional observations from a re-analysis of the deposited data

How the results depend on the processing

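Of 27 calls of members over the 17 comparisons, 13 held with each of the 16 arrays left out and 8 held in every other setting too. These 8 were the 4 responses of Rel, the KO lineage difference of Rel at 18 h, and the CD4 KO responses of Relb, Nfkbib and Bcl3. No call changed its sign under any alternative. Of all 3768 values under alternatives, 77 had the other sign than the reported value, in 31 differences that were not called, with reported sizes up to 0.37. A test against the 1.5-fold threshold itself called 1 member in place of 3 for the CD4 WT response, 1 in place of 2 for each CD8 response, 0 in place of 2 and of 3 for KO against WT at 18 h in CD4 and CD8 cells, and 0 in place of 3 and 1 in place of 6 for CD8 against CD4 at 18 h in WT and KO cells. Fits to the 8 arrays of a lineage called 1 member for each CD8 response and 0 for CD8 KO against WT at 18 h. Array weights called 1 for the CD8 KO response, 4 for CD4 KO against WT at 18 h, 0 for CD8 KO against WT at 18 h and 2 for the KO lineage difference at 18 h. Without the 3 arrays of the highest 3' to 5' difference, the CD8 KO response had 1 call and CD8 KO against WT at 18 h had 0, with Nfkbia at 0.78 (limma, adjusted p = 0.0503), Rela at 0.65 (0.122) and Relb at 0.72 (0.125). The replicate block, within lineage or by sort, called 1 member, Nfkb2, in place of 0 for the CD4 difference of responses. Within lineage it also called Nfkb2 for CD4 KO against WT at 18 h, by sort it also called Bcl3 for the CD4 WT response, and neither changed another member's call. The block within lineage gives no value for CD8 against CD4, where a replicate block across all arrays called 5 members in place of 6 in KO at 18 h, without Nfkbib (-0.59, limma adjusted p = 0.0539), and changed no other call. Centring arrays on their medians called 4 members for CD4 KO against WT at 18 h and 8 for both the CD4 KO response and the KO lineage difference at 18 h. Over all 12393 genes it called 1008, 3155 and 2080 in these comparisons, in place of 850, 3004 and 1693. It moved the median of all genes by 0.17 for the CD4 KO response, -0.14 for CD8 KO against WT at 0 h, and -0.26 for the KO lineage difference at 18 h, by -0.12 for that at 0 h, by 0.10 for CD4 KO against WT at 18 h and the CD4 WT response, and by -0.19 to -0.14 for the differences between lineages in an effect. The share of called genes that were higher went from 45.6% to 58.5% for the CD4 KO response, from 39.6% to 56.3% and from 57.8% to 47.2% for KO against WT at 18 h in CD4 and CD8 cells, from 69.3% to 50.8% for CD8 KO against WT at 0 h, and from 70.8% to 55.9%, 66.7% to 35.5% and 68.9% to 54.6% for CD8 against CD4 in WT at 18 h, KO at 18 h and KO at 0 h, and from 60.9% to 45.0% for the difference of WT responses between lineages. With 1 array left out, the member calls ranged from 3 to 4 for the CD4 WT response, 5 to 6 for CD4 KO, 1 to 3 for CD8 WT and 1 to 2 for CD8 KO. They ranged from 1 to 3 and from 0 to 6 for KO against WT at 18 h in CD4 and CD8 cells, from 1 to 4 and from 2 to 6 for CD8 against CD4 at 18 h in WT and KO, and from 0 to 1 for the 18 h difference of KO effects, with the lone call Bcl3 (1.71, limma adjusted p = 0.0319, without CD8 KO 18 h replicate 1). Without array 1 of CD8 KO 18 h, that group rests on array 2 alone, whose 3' to 5' difference was 3.76. The cause of these changes was not tested beyond what the settings fix. Counts over all genes are given for the centring and, for KO against WT at 18 h, for the test against the 1.5-fold change. Elsewhere a change in member calls cannot be set against that of all genes. Groups of 2 arrays limit all of these comparisons.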
